A study of Mus musculus with 16 samples.

Results

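Imprinted genes, which are transcribed mainly from the allele of one parent, were examined by name in 6DT1 cells, a cancer line from the mouse mammary gland, strain FVB/N1. A list of 34 imprinted genes was matched to the gene symbols of the deposited count table. Of these, 30 had a row among 25745 genes, and the RNA levels of the other 4 (Peg10, Dlk1, Nnat and Magel2) were not analysed here. RNA-seq had been carried out on 16 libraries in 4 groups of 4. The lentivirus in the cells was either one for expression of CLIC4, a member of the chloride intracellular channel family, or an empty vector. Each kind of cell was kept untreated or exposed for 24 h to hydrogen peroxide (H2O2) at 1 µM. Libraries 1 to 4 were untreated and 5 to 8 treated CLIC4 lentivirus cells, and libraries 9 to 12 were untreated and 13 to 16 treated empty-vector cells. The series text names only the vectors, whereas the descriptions of single samples give CLIC4 knockout for libraries 9 to 16 and wild type for libraries 1 to 8, so the labels conflict on the genotype. No source used here says whether the cells were clones, or whether libraries of one group were grown as separate cultures, and p-values therefore cover only the variation among these samples, part or all of which may be technical.

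At imprinted loci, DNA methylation laid down in the egg or sperm marks one parental copy, and zinc finger proteins, DNA methyltransferases and chromatin proteins keep that mark through cell division. The genes lie in clusters around such marked regions, and in several clusters a long noncoding RNA is transcribed from the paternal copy and silences its protein-coding neighbours on that copy. Many encode regulators of fetal growth, placenta and metabolism, and many are transcribed at low levels in adult epithelium. The deposited values sum both parental copies, so they show how much RNA a locus gave and not from which copy it came. A lower level over a culture can come from fewer transcribing cells or from less RNA per cell, and these cannot be told apart in bulk RNA.

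Of the pairs of neighbouring genes described below, Peg3 and Usp29 start close together and Airn runs over part of Igf2r. Zrsr1 lies within Commd1 on the opposite strand, as given below. Peg3 (chromosome 7, 6703892 to 6730431, minus strand, GENCODE vM21, build mm10) and Usp29 (6730578 to 6967219, plus strand) start on opposite strands of one promoter region, and their 300-base windows share 263 bases. Airn (chromosome 17, 12741311 to 12860136, plus strand) starts inside Igf2r (12682406 to 12769664, minus strand) and runs past its start, with 0 exon bases shared. The windows of 250 bases before and 50 after the annotated starts, from RefSeq on GRCm38.p6, are printed 5′ to 3′ on the strand of each gene, with every CG dinucleotide, the target of DNA methylation, in capitals. They lie at chr7:6730370-6730669 (minus strand) for Peg3, chr17:12769657-12769956 (minus strand) for Igf2r and chr17:12741061-12741360 (plus strand) for Airn.
Peg3: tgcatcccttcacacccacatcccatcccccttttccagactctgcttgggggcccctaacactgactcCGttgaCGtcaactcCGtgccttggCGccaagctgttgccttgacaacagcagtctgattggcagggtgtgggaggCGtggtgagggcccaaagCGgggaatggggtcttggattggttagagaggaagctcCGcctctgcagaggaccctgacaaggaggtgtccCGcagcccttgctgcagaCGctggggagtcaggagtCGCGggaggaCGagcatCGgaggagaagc
Igf2r: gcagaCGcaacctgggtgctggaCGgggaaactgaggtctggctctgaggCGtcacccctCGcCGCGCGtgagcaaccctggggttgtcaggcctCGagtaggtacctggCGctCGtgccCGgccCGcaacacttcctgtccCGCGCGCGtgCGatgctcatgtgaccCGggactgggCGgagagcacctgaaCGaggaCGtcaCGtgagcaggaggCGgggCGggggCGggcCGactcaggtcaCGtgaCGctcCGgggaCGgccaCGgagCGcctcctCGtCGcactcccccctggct
Airn: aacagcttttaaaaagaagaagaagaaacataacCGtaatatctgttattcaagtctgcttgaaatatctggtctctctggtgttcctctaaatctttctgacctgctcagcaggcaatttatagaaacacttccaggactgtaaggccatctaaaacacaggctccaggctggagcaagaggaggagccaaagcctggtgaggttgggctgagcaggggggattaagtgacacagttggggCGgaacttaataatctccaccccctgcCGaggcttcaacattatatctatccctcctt
The Igf2r window held 34 CG dinucleotides, a number reached by 7.73% of 32851 RefSeq promoter windows of the same length. The Peg3 window held 13, reached by 37.9% of windows, and the Airn window 3, reached by 76.7%. RefSeq windows were found for 26 of the 34 listed genes (Dlk1, Nnat and Magel2 among them), 40 windows in all, some of which overlap within a gene, with a median of 13.5 CG dinucleotides against 7 over all windows. The hexamer TGCCGC, which the imprint-keeping zinc finger protein ZFP57 binds when methylated, was in 10 of the 40 windows (25%) on either strand, against 11.6% of all windows. The 10 include 2 Mest windows that start 3 bases apart. The hexamer itself holds a CG, and its share was not compared with windows of like CG number. The hexamer was in none of the 3 windows printed. The files hold no methylation data.

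The libraries were deep, and one of them stood apart. Total counts per library lay between 47.1 M and 61.9 M, so that 1 count was worth 0.0159 to 0.0259 CPM, the unit of level used here (counts scaled by TMM to a common library size). Library 11, untreated empty vector, reached a correlation of at most 0.926 with the other libraries of its group over tested genes, while every other pair within a group was at 0.9978 or above. The biological coefficient of variation was 23.1% with and 5.28% without it, and results on the vectors are therefore given with and without library 11. Clic4 itself was at 229 ± 10.4 CPM in untreated lentivirus and 66.3 ± 47.8 CPM in untreated empty-vector cells (SD, n = 4 each), and at 243 ± 12.9 and 42.4 ± 2.35 CPM in treated cells. Library 11 held 138 CPM of Clic4. Without it the untreated empty-vector level was 42.5 ± 1.93 CPM (SD, n = 3), and the untreated log2 change was -2.43 in place of -1.79. Of the markers of mammary luminal epithelium, Krt8, Krt18, Krt19 and Gata3 were expressed, while Epcam stood at 0 to 0.02 FPKM in 15 libraries and at 6.08 FPKM in library 11, and Cdh1 never exceeded 0.26 FPKM.

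Of the 30 imprinted genes with a row, 12 had enough counts to be tested and 18 did not. The 12 tested genes had 207 to 885750 counts over the 16 libraries. The deposited FPKM, which are scaled to gene length, allow their levels to be ranked. In untreated lentivirus cells Gnas, which encodes the stimulatory G protein alpha subunit, was by far the highest at 698 ± 14.7 FPKM (SD, n = 4). It was followed by Commd1 (86.9 ± 5.23 FPKM), Igf2r (61.4 ± 8.37 FPKM) and Ube3a (27.4 ± 1.5 FPKM), and these do not overlap in their library values. Snrpn (13.3 ± 0.657 FPKM) and Zrsr1 (12.6 ± 0.788 FPKM) did overlap. Airn, Peg3, Impact and Dcn lay between 1.27 and 5.73 FPKM on average, and Kcnq1ot1 and Usp29 below 0.1 FPKM. In treated empty-vector cells Igf2r (90.9 ± 6.59 FPKM) and Commd1 (80.3 ± 7.60 FPKM) overlapped, and so did Peg3 (2.56 ± 0.124 FPKM) and Impact (2.51 ± 0.154 FPKM).

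**Figure D1:**
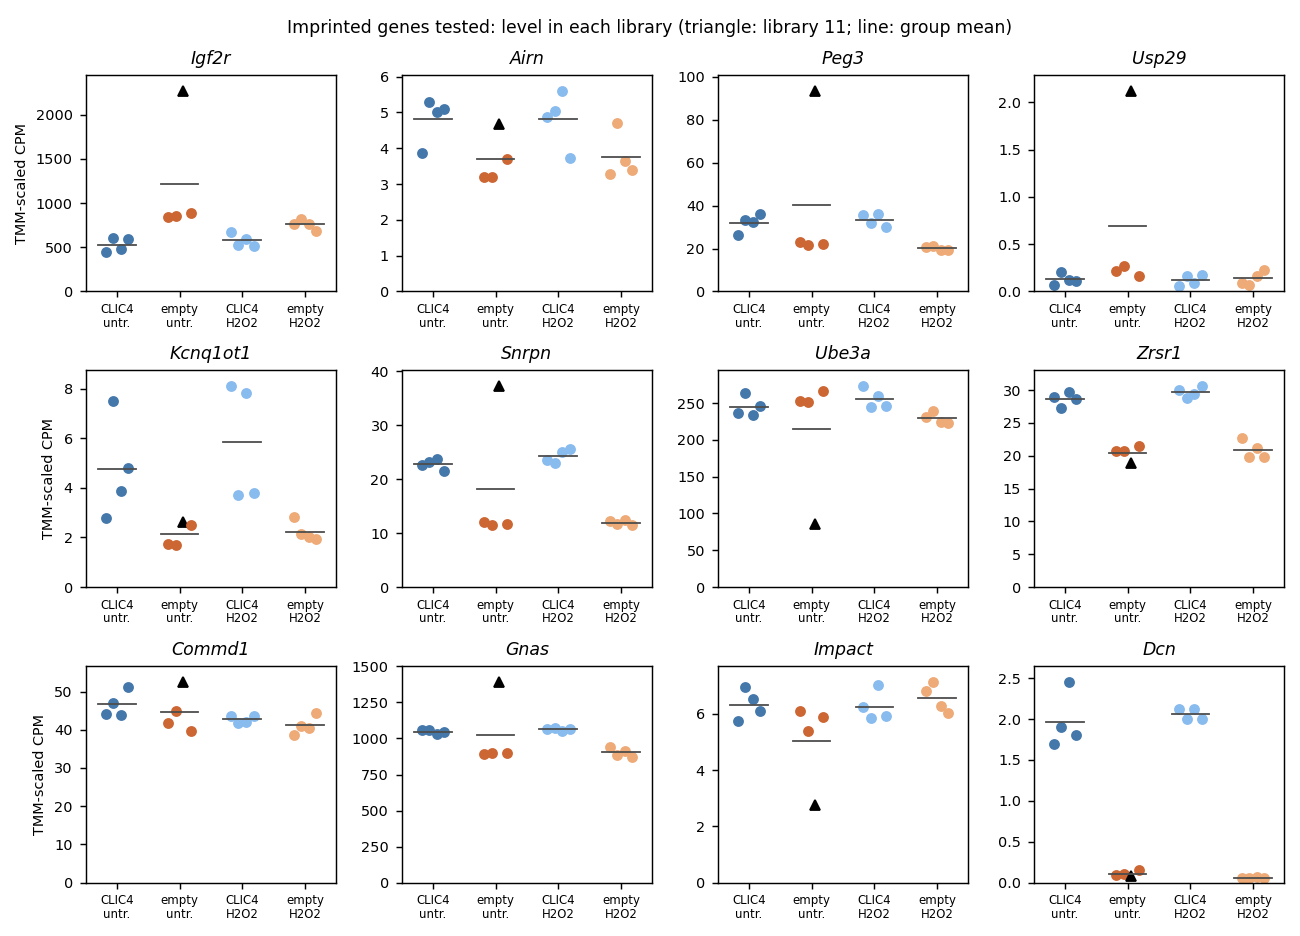
TMM-scaled CPM of the 12 tested imprinted genes in each of the 16 libraries, on linear axes that start at 0, by vector and treatment. Points are libraries, lines group means and the triangle is library 11, which stands at 2271 CPM for Igf2r and 93.6 CPM for Peg3, far above the other 3 libraries of its group.

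The vectors were compared by edgeR's quasi-likelihood test on the counts of all 16 libraries, with Benjamini-Hochberg adjustment over the 14445 genes tested and calls at an adjusted p under 0.05. Log2 changes are empty vector minus CLIC4 lentivirus. In untreated cells 2 of the 12 tested imprinted genes were higher with the empty vector (Igf2r and Usp29) and 3 were lower (Kcnq1ot1, Zrsr1 and Dcn), while over all genes 53.3% were called, 29% higher and 24.3% lower. Their median log2 change was -0.26, against 0.03 over all genes tested. In treated cells 0 were higher and 4 were lower (Kcnq1ot1, Snrpn, Zrsr1 and Dcn), against 42.1% called over all genes, 22.1% higher and 20% lower, and the median was -0.30 against -0.01. At an unadjusted p under 0.05 the treated comparison had 4 of the 12 imprinted genes, against 7057 of the 14445 genes tested. DESeq2 also called 0 imprinted genes higher and 4 lower there. Without library 11, 1 imprinted gene was higher and 8 were lower in untreated cells (74.4% of all genes called, 37% higher and 37.3% lower), with a median of -0.33. In treated cells the numbers were again 1 and 8 (73.8% of all genes, 36.6% higher and 37.2% lower). The share of imprinted genes called either way was thus near that of all genes, 9 of 12 in each comparison without library 11.

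**Figure D2:**
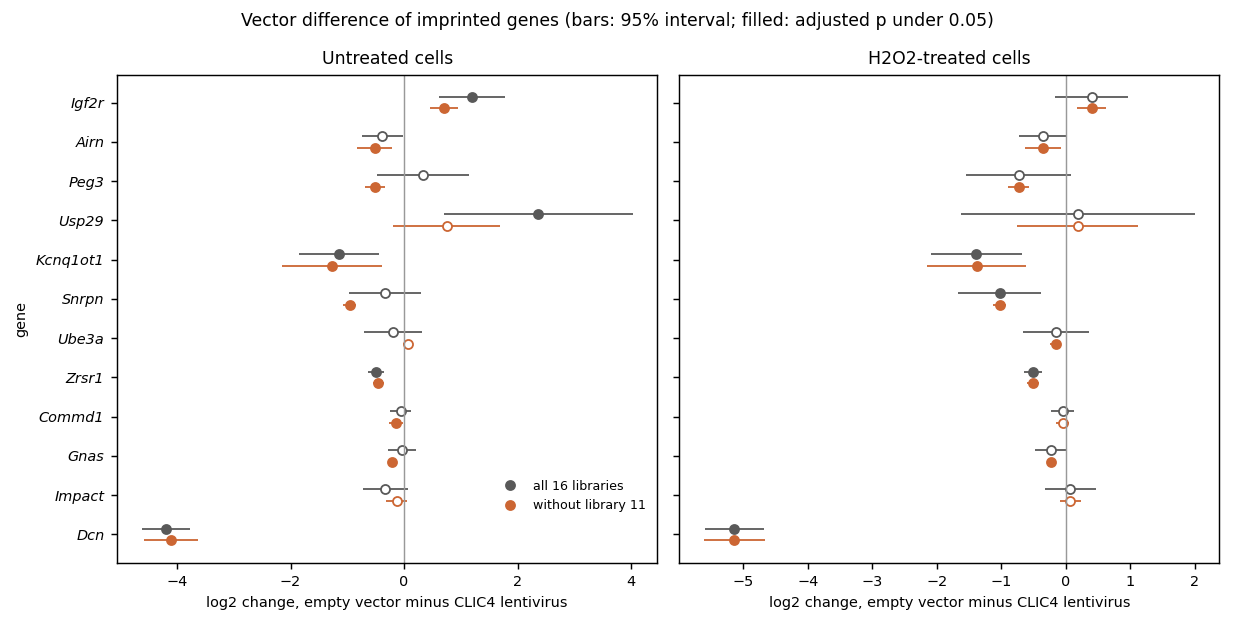
Log2 change, empty vector minus CLIC4 lentivirus, of each tested imprinted gene in untreated (left) and treated cells (right), with 95% intervals from edgeR. Grey points use all 16 libraries, orange points leave out library 11, and filled points have an adjusted p under 0.05. Dcn lies lowest in both panels, at -4.20 and -5.14, and Peg3 changes sign in untreated cells without library 11.

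Dcn, on chromosome 10 (97479609 to 97518143, plus strand), encodes decorin, a small leucine-rich proteoglycan of the extracellular matrix whose imprinting is known from the mouse placenta. It gave the largest vector difference among the tested imprinted genes. Untreated lentivirus libraries 1 to 4 held 1.70, 1.91, 2.46 and 1.81 CPM, and untreated empty-vector libraries 9 to 12 held 0.0882, 0.101, 0.0778 and 0.149 CPM. Treated lentivirus libraries 5 to 8 held 2.13, 2.00, 2.12 and 2.00 CPM, and treated empty-vector libraries 13 to 16 held 0.0543, 0.0518, 0.0657 and 0.0530 CPM. Every lentivirus library was above every empty-vector library. The untreated libraries summed to 429 counts with the lentivirus and 22 with the empty vector, and the ratio of mean levels was 18.9, or 17.4 without library 11, which left 19 counts. The treated libraries summed to 471 and 13 counts, a ratio of 36.7. The log2 changes were -4.20 (standard error 0.20, edgeR adjusted p = 6.87e-10) untreated and -5.14 (standard error 0.21, edgeR adjusted p = 1.63e-10) treated.

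Markers of other cell types were set beside Dcn, which is also a fibroblast gene. All 6 fibroblast markers (Col1a1, Col1a2, Col3a1, Pdgfra, Pdgfrb and Thy1) had a value, and their summed level was 2.01 to 2.75 FPKM in untreated and 2.33 to 2.90 FPKM in treated lentivirus cells. With the empty vector, where Dcn was low, the sum was higher, at 3.63 to 5.21 FPKM untreated and 3.16 to 3.97 FPKM treated. Without library 11 the untreated empty-vector sum was 3.63 to 3.93 FPKM. Of the 6, only Col1a1 went with Dcn, at 1.48 ± 0.287 FPKM in untreated lentivirus and 0.490 ± 0.0898 FPKM in untreated empty-vector cells (SD, n = 4 each). Pdgfra went the other way, at 0.750 ± 0.0583 and 3.42 ± 0.641 FPKM (SD, n = 4 each). So did the low means of Col1a2 (0.0225 and 0.125 FPKM) and Col3a1 (0.0075 and 0.0825 FPKM). Thy1 was listed at 0 in all 8 lentivirus libraries, and its empty-vector means were 0.0275 FPKM untreated and 0.0375 FPKM treated. Pdgfrb did not exceed 0.02 FPKM in any library. The sums of endothelial and basal markers were higher where Dcn was higher, through Cdh5 and Trp63. In untreated cells the means of Pecam1, Kdr, Krt5, Krt14, Acta2 and Myh11 were higher with the empty vector. None of these means exceeded 0.42 FPKM, and Tek had the same mean with both vectors. For Pecam1 and Krt14 the difference rested mainly on library 11, at 1.16 and 0.13 FPKM. The summed level of 4 endothelial markers was 21.3 to 23.0 FPKM in lentivirus and 1.00 to 2.00 FPKM in empty-vector libraries, nearly all of it Cdh5, while Kdr and Tek did not exceed 0.04 FPKM. The summed level of 5 basal and myoepithelial markers was 0.99 to 1.32 FPKM in lentivirus and 0.06 to 0.42 FPKM in empty-vector libraries. Most of it in lentivirus cells was Trp63, while Krt5 and Krt14 did not exceed 0.13 FPKM. The summed level of 4 immune markers went against Dcn, at 0 to 0.05 FPKM in lentivirus libraries. With the empty vector it was 0.98 to 1.18 FPKM, mostly Itgam, and 4.94 FPKM in library 11, mostly Csf1r. The summed level of 3 adipocyte markers did not exceed 0.11 FPKM. The part of other cell types in the Dcn difference was not tested.

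Igf2r, the receptor that clears the growth factor IGF2 and sorts lysosomal enzymes, was the only tested imprinted gene higher with the empty vector both with and without library 11 in untreated cells. Lentivirus libraries 1 to 4 held 449, 599, 478 and 592 CPM. Empty-vector libraries 9 to 12 held 841, 856, 2271 and 884 CPM. All 4 were above every lentivirus library, and library 11 was far above the other 3. This gave a log2 change of 1.20 (standard error 0.27, edgeR adjusted p = 0.00198), which was 0.70 without library 11 (standard error 0.11, edgeR adjusted p = 8.87e-05). Treated libraries 5 to 8 held 669, 530, 598 and 509 CPM with the lentivirus, and libraries 13 to 16 held 767, 819, 761 and 689 CPM with the empty vector, again without overlap. The treated log2 change of 0.40 was not called with all libraries (edgeR adjusted p = 0.259) and was called without library 11 (0.40, edgeR adjusted p = 0.00408), which belongs to neither treated group and enters through the shared estimate of spread. The fit on the treated groups alone also called Igf2r (0.40, edgeR adjusted p = 0.00466).

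Airn, the paternally transcribed antisense RNA that silences Igf2r on that copy, had changes of the opposite sign that passed the test only in some fits. Untreated libraries held 3.86, 5.30, 5.00 and 5.10 CPM with the lentivirus (libraries 1 to 4) and 3.19, 3.21, 4.69 and 3.70 CPM with the empty vector (libraries 9 to 12). The groups overlapped only through library 11. Its log2 change of -0.38 missed the threshold with 16 libraries (edgeR adjusted p = 0.0729), and the gene was lower without library 11 (-0.51, edgeR adjusted p = 0.00419) and without library 1 (-0.48, edgeR adjusted p = 0.0405). In treated cells it was at 4.81 ± 0.791 CPM with the lentivirus and 3.75 ± 0.648 CPM with the empty vector (SD, n = 4 each), with overlap. The treated change of -0.36 (edgeR adjusted p = 0.109) passed without library 11 (-0.35, adjusted p = 0.0228), without library 14 (-0.48, adjusted p = 0.0424) and without library 8 (-0.46, adjusted p = 0.0479). It also passed in the fit on the treated groups alone (-0.36, edgeR adjusted p = 0.0312). Without known strandedness, reads from introns of Igf2r and from Airn cannot be told apart where they overlap.

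Snrpn, which encodes the SmN protein of small nuclear ribonucleoproteins and is transcribed from the paternal copy, divided the vectors cleanly apart from library 11. Untreated lentivirus libraries 1 to 4 held 22.6, 23.2, 23.7 and 21.5 CPM, and empty-vector libraries 9 to 12 held 12.0, 11.4, 37.2 and 11.7 CPM. Treated libraries held 23.6, 23.0, 25 and 25.5 CPM with the lentivirus and 12.2, 11.7, 12.3 and 11.4 CPM with the empty vector. All but 1 of the 8 empty-vector libraries were thus below all lentivirus libraries, and library 11 was above all of them. In treated cells Snrpn was lower, by a log2 change of -1.03 (standard error 0.30, edgeR adjusted p = 0.0130). The untreated change was -0.34 (edgeR adjusted p = 0.354), and -0.96 without library 11 (edgeR adjusted p = 2.17e-12); limma on log2(FPKM + 1), with library 11, also called it (-0.57, adjusted p = 0.0191). Of the exon bases of Snrpn, 216 (10.0%) are shared with Snurf on the same strand and 589 (27.3%) with Gm38393, so their counts are not fully separate.

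Ube3a, a ubiquitin ligase gene of the same cluster whose imprinting is known from neurons, differed little. Empty-vector libraries 9 to 12 held 253, 252, 85.2 and 266 CPM and untreated lentivirus libraries 236, 264, 233 and 246 CPM, so that library 11 was far below all the others. The untreated log2 change was -0.19 (edgeR adjusted p = 0.512) with and 0.07 (adjusted p = 0.150) without library 11. In treated cells the levels were 256 ± 13.4 CPM with the lentivirus and 230 ± 7.39 CPM with the empty vector (SD, n = 4 each). The treated change was -0.16 (edgeR adjusted p = 0.650), called only in the fit without library 11 (-0.16, adjusted p = 0.00210) and in the fit on the treated groups alone (-0.16, adjusted p = 0.00151). The antisense gene Snhg14 covers 1803 (8.74%) of its exon bases.

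Peg3, a paternally transcribed zinc finger gene, was low with the empty vector in every library except library 11. Untreated lentivirus libraries 1 to 4 held 26.4, 33.3, 32.4 and 35.9 CPM, and empty-vector libraries 9 to 12 held 23.2, 21.7, 93.6 and 22.3 CPM. Treated libraries held 35.8, 32.1, 36.0 and 30.2 CPM with the lentivirus and 20.5, 21.3, 19.3 and 19.5 CPM with the empty vector. Its untreated log2 change was 0.33 (edgeR adjusted p = 0.478) with library 11, -0.045 by limma on log2(FPKM + 1) with it (adjusted p = 0.882), and -0.51 by edgeR without it (adjusted p = 4.70e-05). The treated change was -0.73, not called with all libraries (edgeR adjusted p = 0.141) and called without library 11 (-0.73, adjusted p = 2.92e-07). The fit on the treated groups alone also called Peg3 (-0.74, edgeR adjusted p = 3.66e-08).

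Usp29, a paternally transcribed deubiquitinase gene, had only 207 counts over the 16 libraries, of which 82 lay in library 11. Libraries 9 to 12 held 0.212, 0.270, 2.13 and 0.167 CPM, and untreated lentivirus libraries 0.0714, 0.206, 0.124 and 0.108 CPM. The groups overlapped. Its untreated call (log2 change 2.37, edgeR adjusted p = 0.0198) ended without library 11 (0.75, adjusted p = 0.137), without library 1 (2.17, adjusted p = 0.0547) and in the fit on the untreated groups alone (2.39, adjusted p = 0.0913). In treated cells it was at 0.120 ± 0.0574 CPM with the lentivirus and 0.138 ± 0.0732 CPM with the empty vector (SD, n = 4 each), and was not called (0.19, edgeR adjusted p = 0.886).

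Zrsr1 and Kcnq1ot1, also transcribed from the paternal copy, were lower with the empty vector in both treatments, with and without library 11. Zrsr1 encodes a relative of the splicing factor U2AF1 and lies on chromosome 11 (22972005 to 22976496, plus strand) within Commd1, which runs on the minus strand. Untreated lentivirus libraries 1 to 4 held 29.0, 27.3, 29.8 and 28.6 CPM of Zrsr1 and empty-vector libraries 9 to 12 held 20.7, 20.8, 18.9 and 21.5 CPM. Treated libraries held 30.0, 28.8, 29.5 and 30.6 CPM with the lentivirus and 22.7, 19.8, 21.2 and 19.9 CPM with the empty vector. The vectors did not overlap in either treatment. The log2 changes were -0.49 (standard error 0.066, edgeR adjusted p = 2.74e-05) untreated and -0.51 (standard error 0.066, edgeR adjusted p = 1.99e-05) treated.

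Kcnq1ot1, the long noncoding RNA that silences Cdkn1c, Phlda2 and other neighbours on the paternal copy, varied more among lentivirus libraries. Untreated lentivirus libraries 1 to 4 held 2.79, 7.51, 3.87 and 4.82 CPM and empty-vector libraries 9 to 12 held 1.75, 1.69, 2.64 and 2.49 CPM. Treated libraries held 8.11, 3.70, 7.86 and 3.79 CPM with the lentivirus and 2.84, 2.12, 2.04 and 1.94 CPM with the empty vector. The groups did not overlap, though the lowest lentivirus library was close to the highest empty-vector library in untreated cells. The log2 changes were -1.15 (standard error 0.33, edgeR adjusted p = 0.0095) and -1.39 (standard error 0.33, edgeR adjusted p = 0.00334). Its partner Kcnq1 shares 121 exon bases with it on the opposite strand and was too low to test.

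Commd1, Gnas and Impact had small differences or none that passed. Commd1, a gene of copper handling, was at 46.6 ± 3.41 CPM in untreated lentivirus and 44.7 ± 5.68 CPM in untreated empty-vector cells (SD, n = 4 each). Its log2 change of -0.06 (edgeR adjusted p = 0.569) became -0.14 without library 11 (adjusted p = 0.0259), and the treated change was -0.05 (adjusted p = 0.664). Gnas held 1060, 1058, 1031 and 1043 CPM in untreated lentivirus libraries and 896, 902, 1394 and 901 CPM in empty-vector libraries 9 to 12. Its change was -0.03 (edgeR adjusted p = 0.811) with library 11 and -0.22 without it (adjusted p = 1.69e-06). With library 11 kept, limma on log2(FPKM + 1) called Gnas lower in untreated (-0.15, adjusted p = 0.00644) and treated cells (-0.22, adjusted p = 6.43e-04). In treated cells Gnas was at 1065 ± 9.21 CPM with the lentivirus and 903 ± 29.0 CPM with the empty vector, a change of -0.24 (edgeR adjusted p = 0.115; 1.89e-07 without library 11), and the groups did not overlap. The fit on the treated groups alone also called Gnas (-0.24, edgeR adjusted p = 3.34e-06). The antisense gene Nespas covers 988 (8.83%) of its exon bases, and transcripts from its several promoters are summed in one count. Impact, an inhibitor of GCN2 activation, was not called in either treatment (-0.33, edgeR adjusted p = 0.151 untreated; 0.07, adjusted p = 0.805 treated), with or without library 11.

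Ratios between neighbours within a library do not depend on scaling, so the pairs of a shared cluster were compared as log2 ratios of counts, with 0.5 added to each count. Exact 2-sided permutation tests over libraries were run for 4 pairs in each treatment, 8 tests in all, whose smallest possible p is 0.0286 for 4 against 4 libraries. Between the vectors 53.3% of all genes were called in untreated and 42.1% in treated cells. Ratios of other gene pairs were not compared, so these tests cannot show whether a difference is particular to imprinted clusters. The ratio of Igf2r to Airn was 6.86, 6.82, 6.58 and 6.85 in untreated lentivirus libraries and 8.04, 8.05, 8.92 and 7.90 in empty-vector libraries 9 to 12. The mean was 1.45 higher with the empty vector in untreated cells and 0.76 higher in treated cells (exact permutation p = 0.0286 and adjusted p = 0.0381 for each), and no libraries overlapped. Without library 11 the untreated difference was 1.22, where 3 against 4 libraries cannot go below an exact p of 0.0571. The tests are adjusted together, so the treated adjusted p then rose to 0.0653 as well, at the same difference and unadjusted p; this holds for every ratio called in treated cells.

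The ratio of Commd1 to Zrsr1 was also higher with the empty vector, by 0.42 untreated and 0.45 treated (exact permutation adjusted p = 0.0381 for each), without overlap. Without library 11 the untreated difference was 0.31 and both had an exact permutation adjusted p of 0.0653. On FPKM the untreated difference was 0.35 (exact permutation adjusted p = 0.098). These genes share 412 exon bases on opposite strands. The ratio of Snrpn to Ube3a was -4.40, -4.46, -1.19 and -4.51 in empty-vector libraries 9 to 12 and -3.51 to -3.30 in untreated lentivirus libraries. Its untreated difference was -0.22 (exact permutation p = 1), and -1.03 without library 11, while the treated difference was -0.87 (exact permutation adjusted p = 0.0381; 0.0653 when adjusted with the tests without library 11). The ratio of Peg3 to Usp29 was 1.60 lower with the empty vector in untreated cells, a difference of -1.60 (exact permutation adjusted p = 0.0381; -1.29 without library 11), and the treated difference of -0.90 had an exact permutation p of 0.171 (adjusted p = 0.196). Usp29 has 3 to 16 counts in the libraries other than library 11, so this ratio carries a large counting error.

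**Figure D3:**
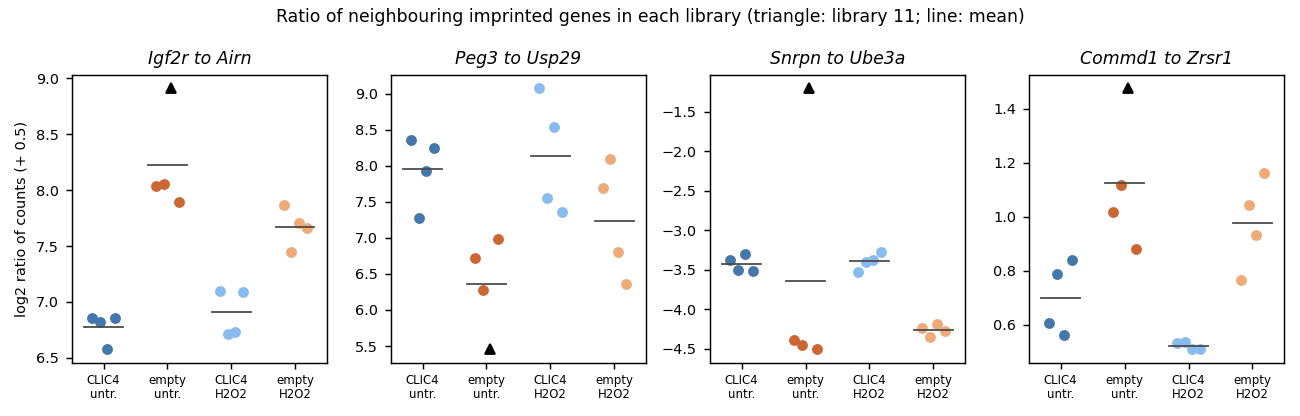
Log2 ratio of the counts (each plus 0.5) of 4 pairs of neighbouring imprinted genes in each library, by vector and treatment, on axes that do not start at 0. Points are libraries, lines group means and the triangle is library 11. The Igf2r to Airn ratio lies at 7.44 or above in every empty-vector library and at 7.10 or below in every lentivirus library.

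H2O2 had no called effect on an imprinted gene. By edgeR 0 of the 12 were called in empty-vector cells, in lentivirus cells and in the difference of the responses, where 0% of all genes were called in each. At an unadjusted p under 0.05 there were 3, 0 and 0 imprinted genes, against 2120, 255 and 859 of the 14445 genes tested. DESeq2 and limma on FPKM also called 0 imprinted genes. The log2 changes ran from -2.25 to 0.38 in empty-vector cells with library 11, and from -0.97 for Dcn to 0.18 without it. Without library 11, 0.24% of all genes were called in these cells (0.123% higher and 0.116% lower). There, 1 imprinted gene had an unadjusted p under 0.05, against 1994 of the 14602 genes tested. In lentivirus cells the log2 changes of imprinted genes ran from -0.13 for Commd1 to 0.30. Ube3a had the smallest adjusted p of the imprinted genes without library 11. Its response in empty-vector cells was -0.16 (edgeR adjusted p = 0.0965), and its difference of responses was -0.23 (edgeR adjusted p = 0.0938), where 0.192% of all genes were called (0.0685% higher and 0.123% lower).

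The 18 imprinted genes that were not tested were nearly silent. They had 1 to 79 counts over all 16 libraries, 14 of them under 20. They include the growth factor gene Igf2 (5 counts in all), the noncoding RNAs H19 (76), Meg3 (6), Rian (47) and Mirg (3), and the growth-restraining genes Cdkn1c (4), Phlda2 (4), Plagl1 (2) and Grb10 (10). Mest and Ndn had 1 count each, Sgce and Ascl2 4 each, Zim1 7, Rtl1 8, Mkrn3 16 and Kcnq1 53. Only H19, with 30 counts in library 11 and at most 9 elsewhere, and Slc22a18, with 14 counts in library 1, reached 10 counts in a library.

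Some of these low counts were uneven between groups. Grb10, an adaptor that restrains insulin and growth factor signalling, had 1 count in untreated and 9 in treated empty-vector cells and 0 in the lentivirus libraries. Mkrn3, a ubiquitin ligase gene of the Snrpn cluster, had 6 and 10 counts with the empty vector and 0 with the lentivirus. Rian had 14 counts in untreated and 18 in treated lentivirus cells, and 12 and 3 with the empty vector. With no filter on low counts, edgeR called Grb10 (log2 change 4.21, adjusted p = 0.0282) and Rian (-2.39, adjusted p = 0.0249) in treated cells and H19 (2.75, adjusted p = 0.0489) in untreated cells, where 30 of the 42 H19 counts of the empty-vector group lie in library 11. These fitted changes rest on few counts and depend on the prior count of the fit.

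**Figure D4:**
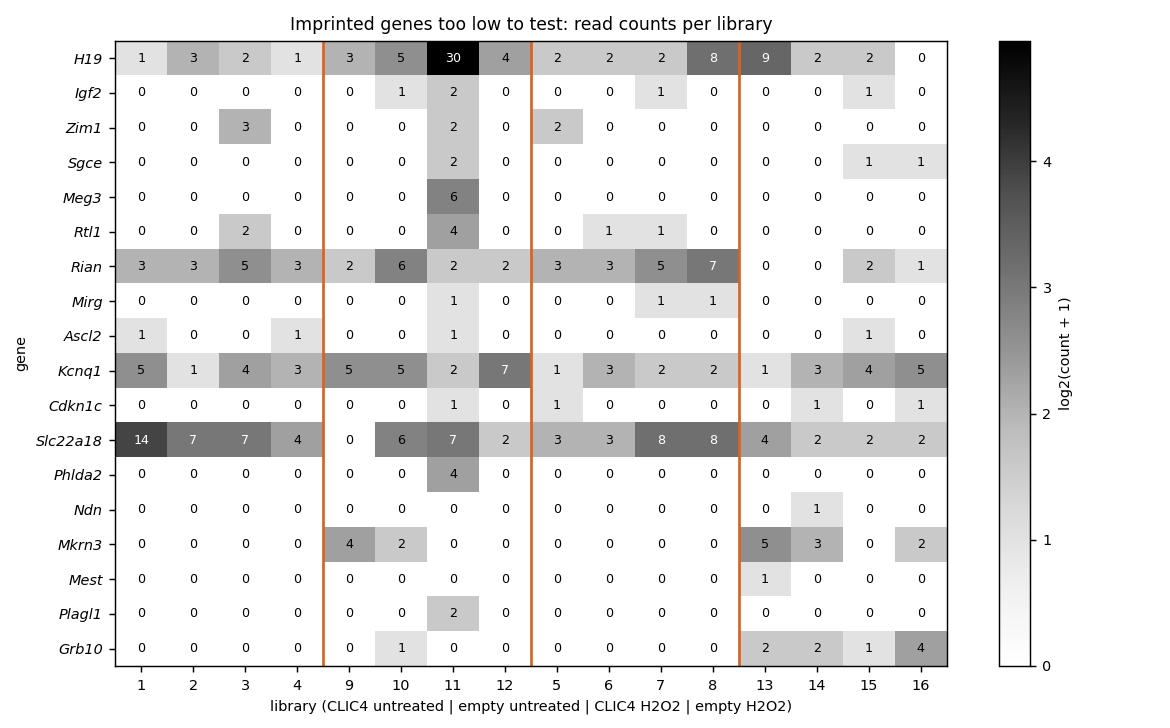
Counts of the 18 imprinted genes that were too low to test, by library, grouped by vector and treatment (vertical lines), with shading on a log2(count + 1) scale. H19 in library 11, at 30 counts, is the highest cell, and Meg3, Phlda2 and Plagl1 have counts in library 11 alone.

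Library 11 departed from its group in a gene-by-gene manner. Against the mean of libraries 9, 10 and 12 its level was 9.82 times as high for Usp29, 4.18 for Peg3, 3.18 for Snrpn and 2.64 for Igf2r. It was 1.55 times as high for Gnas and 1.25 to 1.39 times for Commd1, Kcnq1ot1 and Airn. By FPKM, Gnas in library 11 was at 661 against 614 to 619 in libraries 9, 10 and 12, and Airn at 5.62 against 4.00 to 4.39. Igf2r was at 189 against 101 to 106 FPKM, and Peg3 at 8.2 against 2.69 to 2.93 FPKM. Snrpn was at 15.55 against 6.84 to 7.21 FPKM, and Usp29 at 0.32 against 0.05 to 0.07 FPKM. Commd1 (80.6 against 73.9 to 85.0 FPKM) and Kcnq1ot1 (0.02 against 0.02 to 0.03 FPKM) were within the range of those libraries. Zrsr1 (0.900 times) and Dcn (0.689 times, from 3 counts) were close to or below the group, and Impact (0.474 times) and Ube3a (0.331 times) were well below. By FPKM, Zrsr1 was further below, at 6.65 against 9.92 to 10.31. Among the untested genes 10 of 18 had their highest level in library 11, though Mirg, Ascl2 and Cdkn1c had only 1 count there and also 1 count in other libraries. Meg3 (6 counts), Phlda2 (4) and Plagl1 (2) had counts there alone. Its TMM factor was 0.721, against 0.986 to 1.04 in the other libraries, which raises its CPM for a given count. The part of its other differences, such as the Epcam level above, in these values was not tested.

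**Figure D5:**
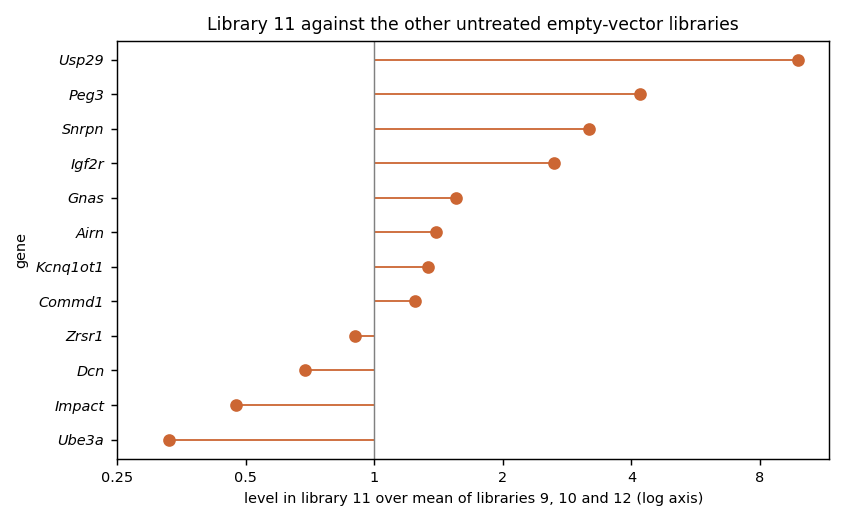
Level of each tested imprinted gene in library 11 divided by the mean of libraries 9, 10 and 12, on a log axis where 1 is no difference. Usp29 lies at 9.82 and Ube3a at 0.331.

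Genes that act with the imprinted loci were read from the same fits. A companion list of 55 further imprinted genes had 40 with a row and 33 tested. In untreated cells 14 were higher and 6 lower with the empty vector (18 and 12 without library 11), and in treated cells 11 were higher and 7 lower (18 and 13 without library 11), with medians of 0.10 and 0.17. Over all genes 53.3% were called in untreated and 42.1% in treated cells, and 74.4% and 73.8% without library 11. In untreated cells without library 11, the genes of this list with the smallest adjusted p were Gatm, Qpct, Ampd3, H13, Slc38a4 and Tnfrsf23. Gatm, the first enzyme of creatine synthesis, was at 79.7 ± 3.10 CPM in untreated lentivirus cells (SD, n = 4) and 202 ± 7.67 CPM in empty-vector cells without library 11 (SD, n = 3), a log2 change of 1.34 (edgeR adjusted p = 2.29e-15; 1.07 and adjusted p = 0.00270 with library 11). Slc38a4, an amino acid transporter gene, had 4 counts in untreated lentivirus and 380 in empty-vector libraries, and 2 and 482 in treated cells. Of the others Qpct (1.32), H13 (0.58) and Tnfrsf23 (1.73) were higher without library 11, and Ampd3, an AMP deaminase gene, was lower (-0.81, edgeR adjusted p = 8.30e-13; -0.30 and 0.328 with library 11).

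A list of 30 genes that set, keep or remove imprints had 28 with a row, all tested. In untreated cells 11 were higher and 5 lower with the empty vector (13 and 7 without library 11), and in treated cells 9 were higher and 5 lower (14 and 10 without library 11), with medians of 0.06 and 0.05, beside the same shares of 53.3% and 42.1% over all genes (74.4% and 73.8% without library 11). Dnmt1, the DNA methyltransferase that copies methylation after replication, was at 98.6 ± 6.38 CPM with the lentivirus and 238 ± 25.3 CPM with the empty vector in untreated cells (SD, n = 4 each), a log2 change of 1.27 (edgeR adjusted p = 9.48e-09). Uhrf1, which brings DNMT1 to replicated DNA, went from 40.3 ± 2.24 to 143 ± 37.3 CPM, a log2 change of 1.82 (edgeR adjusted p = 3.10e-07). Tet1, which oxidises methylated cytosine, was at 0.157 ± 0.0525 CPM with the lentivirus, and with the empty vector at 1.41 ± 0.889 CPM with library 11 and 1.85 ± 0.199 CPM without it (n = 3), since library 11 held 0.104 CPM. Its log2 change was 3.17 (edgeR adjusted p = 6.35e-04) and 3.54 without library 11. Ezh2 (0.55), the methyltransferase of Polycomb complex 2, and Smchd1 (0.48) were also higher, while Kdm1b, the histone demethylase needed for maternal imprints in mouse oocytes, was lower (-0.52, edgeR adjusted p = 2.31e-04). All 6 kept their direction and their call in treated cells, with Dnmt1 at 1.17 and Kdm1b at -0.69.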

How the data were processed

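Values were taken from the tables deposited for 16 libraries. Total RNA was extracted with a Qiagen kit, per the labels' protocols. Reads were handled with cutadapt, STAR and RSEM on the build mm10, per the submitters' processing notes, for which the sources used here give no versions, annotation or strandedness. The deposited table holds whole-number counts for 25745 genes, which the authors may have rounded from RSEM estimates. The authors' deposited FPKM are scaled to gene length and library depth and were used for levels between genes and in alternatives. Overlapping, antisense and near-identical genes may share counts.

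Groups came from sample titles. The members and lists were chosen with earlier results of these data known. Genes were matched by symbol, and positions came from GENCODE vM21. All 16 libraries entered 1 fit by edgeR 4.0.16 (R 4.3.3) with TMM scaling, filterByExpr with a minimum count of 10 and a robust quasi-likelihood F test. Standard errors were taken as log2 change over the square root of F. Levels are TMM-scaled CPM with SD. Every listed gene is accounted for. Of the 2 companion lists, up to 6 called genes with the smallest adjusted p in untreated cells without library 11 are named. Pairs were compared by exact permutation in scipy 1.17.1. No pair of libraries of a group agreed within sampling noise (chi-square per degree of freedom at least 4.79). As alternatives, DESeq2 1.42.0, edgeR with RLE size factors, without a filter or on the compared groups alone, limma 3.58.1 on log2(FPKM + 1) and log2(FPKM + 0.1) with FPKM of at least 0.5 in 4 libraries or no filter, which understate changes of low genes, other added values for the ratios, and fits without each library were run. The fit was tested on simulated counts. Figures were drawn with matplotlib 3.10.9.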

Additional observations from a re-analysis of the deposited data

Results flagged for a closer look

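In 7 of the 50 groups of 4 libraries checked, 1 library lay far from the other 3, and in each of the 7 it was library 11. Chance alone flags about 1 in 20 independent groups. All 7 are levels in untreated empty-vector cells and share library 11, so their number cannot be set against that rate. Library 11 held 1394 CPM of Gnas, where libraries 9, 10 and 12 held 896 to 902 CPM (661 against 614 to 619 FPKM). It held 2271 CPM of Igf2r against 841 to 884 CPM, 93.6 CPM of Peg3 against 21.7 to 23.2 CPM, and 37.2 CPM of Snrpn against 11.4 to 12.0 CPM. Usp29 stood at 2.13 CPM against 0.167 to 0.270 CPM, and H19 at 0.778 CPM against 0.0529 to 0.0845 CPM. Only groups with at least 20 counts were checked, and H19 passed with 42 counts through library 11, without which it had 12. Ube3a was the only one of the 7 below its group, at 85.2 CPM against 252 to 266 CPM. No test of a cause was made.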

How the results depend on the processing

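No paired analysis was possible because the groups share no library number. For the vector comparisons, the number of imprinted genes called higher was 1 in untreated cells, in place of 2, with DESeq2, with the compared groups alone and with limma on log2(FPKM + 1) or log2(FPKM + 0.1), and 1 to 2 when single libraries were left out (1 without library 11 or 1). In treated cells it was 1, in place of 0, with the compared groups alone, with no filter and with limma without a filter, and 0 to 1 when single libraries were left out. The number called lower was 8 in treated cells, in place of 4, with the compared groups alone, 4 to 8 when single libraries were left out, and 3 to 8 in untreated cells; each 8 without a library came without library 11. Over all genes, leaving out library 11 gave 10858 untreated and 10779 treated calls in place of 7700 and 6079, and the compared groups alone 4426 and 10491. DESeq2 called 58, 1 and 17 genes for H2O2 in empty-vector cells, in lentivirus cells and for their difference, where edgeR called 0, and the lentivirus groups alone gave 121.

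Among ratios, with FPKM in place of counts the untreated Commd1 to Zrsr1 difference was 0.35 (exact permutation adjusted p = 0.098) and the treated Peg3 to Usp29 difference -0.72 (exact permutation adjusted p = 0.0381). Leaving out single libraries, where 3 against 4 cannot pass the threshold, gave 1.22 to 1.56 untreated and 0.70 to 0.84 treated for Igf2r to Airn, 0.31 to 0.50 and 0.39 to 0.52 for Commd1 to Zrsr1, -1.82 to -1.29 and -1.19 to -0.58 for Peg3 to Usp29, and -1.03 to 0.074 and -0.92 to -0.83 for Snrpn to Ube3a.

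Directions turned for these genes, none of them called in the test with all libraries. Untreated Peg3 was at -0.080 on log2(FPKM + 0.1), -0.045 on log2(FPKM + 1) with or without a filter, and -0.51 to 0.53 over left-out libraries. Over left-out libraries untreated Gnas ran from -0.22 to 0.024, untreated Ube3a from -0.31 to 0.072, treated Usp29 from -0.16 to 0.43, and Ube3a from -0.16 to 0.22 for H2O2 in empty-vector cells and from -0.23 to 0.16 for the difference of responses. Untreated Kcnq1ot1 was not called by unfiltered limma on log2(FPKM + 1), at -0.038 with an adjusted p of 0.137. Apart from construction, the cause was not tested. Dcn and Zrsr1 kept direction and call under every alternative run. For the H2O2 response of empty-vector cells, the median log2 change of the genes tested was 0.02 in the fit with all libraries. It was 0.11 on log2(FPKM + 1), 0.083 on the same without a filter, and 0.14 on log2(FPKM + 0.1). Depth limits the 18 untested genes, and 3 DESeq2 values without an adjusted p were left out.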

Other observations

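Snurf, which shares its promoter region and 216 exon bases with Snrpn, was picked after its values were seen. It was at 0.497 ± 0.0951 CPM in untreated lentivirus cells (SD, n = 4) and 0.253 ± 0.0153 CPM in empty-vector cells without library 11 (SD, n = 3), a log2 change of -0.97 (edgeR adjusted p = 0.00465). Library 11 held 1.06 CPM, and with it the change was -0.17 (edgeR adjusted p = 0.745). In treated cells the change was -0.42 (edgeR adjusted p = 0.484). Snurf and Snrpn were thus both lower in the untreated empty-vector libraries other than library 11, and both highest in library 11.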
